A study of Mus musculus with 9 samples.

Results

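The 10 mature miRNAs described here are mmu-miR-673-3p, mmu-miR-493-5p, mmu-miR-665-3p, mmu-miR-431-5p, mmu-miR-433-3p, mmu-miR-127-5p, mmu-miR-127-3p, mmu-miR-434-5p, mmu-miR-434-3p and mmu-miR-370-3p, which come from hairpins in the proximal part of the imprinted Dlk1-Dio3 region of mouse chromosome 12 (the prefix mmu, for mouse, is dropped below). They were chosen by name, as miRNAs of this region and with earlier results of these data known, and all 10 were found among the 1966 mature miRNAs of the deposited table. The libraries are small RNA from quadriceps muscle, 1 per mouse for 9 mice in 3 groups of 3, made to ask how loss of MBNL1 or of MBNL2, RNA-binding proteins that regulate RNA processing in muscle, alters miRNA levels. The labels give all mice an age of 90 days. WT mice were C57BL/6J with both genes intact. Mbnl1KO mice were C57BL/6J, carried the ΔE3 deletion on both copies of Mbnl1 and kept both copies of Mbnl2. Mbnl2KO mice kept Mbnl1, and their labels give the strain B6.C-Tg(CMV-cre)1Cgn/J and a different pair of Mbnl2 alleles for each mouse, ΔE2/ΔE2 for replicate 1, ΔE2/ΔE3 for replicate 2 and ΔE2/ΔE4 for replicate 3. The paper names a single allele pair for the whole group, so it is not settled whether the mice differed in genotype or the labels are in error, and they were treated as 1 group. The labelled strain of the Mbnl2KO mice, which carries a Cre transgene under the CMV promoter, and the loss of Mbnl2 cannot be told apart in a comparison with WT. The paper describes the WT mice as littermates, so the difference in strain rests on the labels alone. A miRNA table holds no mRNA of Mbnl1 or Mbnl2, so the knockouts were not checked here.

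In the Dlk1-Dio3 region the protein-coding genes, among them the retrotransposon-derived Rtl1, are expressed from the paternal chromosome, and the long noncoding RNAs and miRNAs from the maternal one. A maternal transcript that runs antisense to Rtl1 carries several miRNA hairpins, whose products are therefore fully complementary to Rtl1 mRNA and can direct its cleavage. Further along, the noncoding RNAs Rian and Mirg host more small RNAs, including the large distal cluster from miR-379 to miR-410. The miRNAs of the region are abundant in the embryo and in brain and decline in muscle after birth.

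The names of the members show which come from the same hairpin. The mature sequences show how the seeds, the bases 2 to 8 that pair with a target, differ between them. They are listed 5′ to 3′ in the order of the hairpins along the chromosome, with the seed in capitals, as given by RefSeq for GRCm38.p6.
mmu-miR-673-3p: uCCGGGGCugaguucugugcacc
mmu-miR-493-5p: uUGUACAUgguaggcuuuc
mmu-miR-665-3p: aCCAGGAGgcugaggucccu
mmu-miR-431-5p: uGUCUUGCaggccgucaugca
mmu-miR-433-3p: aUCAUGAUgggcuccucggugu
mmu-miR-127-5p: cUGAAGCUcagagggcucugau
mmu-miR-127-3p: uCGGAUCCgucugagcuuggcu
mmu-miR-434-5p: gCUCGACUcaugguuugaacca
mmu-miR-434-3p: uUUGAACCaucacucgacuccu
mmu-miR-370-3p: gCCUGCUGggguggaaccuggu
The 10 miRNAs had 10 distinct seeds, and none of these was the seed of another mature miRNA in the RefSeq table. Their lengths were 19 to 23 bases and their GC content was 42.1% to 68.2%. The longest run shared by any pair was the 9 bases uuugaacca, which stand at the 3′ end of miR-434-5p and at the 5′ end of miR-434-3p.

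The 8 hairpins lie on the plus strand of chromosome 12 over 46347 bases (GRCm38.p6, chr12:109571990-109618336). Mir673, Mir493 and Mir665 come first, then Mir431, Mir433, Mir127 and Mir434, and Mir370 lies 23658 bases after Mir434. Mir431, Mir433, Mir127 and Mir434, which give 6 of the 10 members, lie antisense within the coding sequence of Rtl1 in the GENCODE annotation of GRCm39. Each of these 6 was complementary to it over its whole length. The Rtl1 site opposite miR-434-3p, for example, starts at base 818 of a coding sequence of 5232 bases and is shown because this miRNA is the most abundant member.
Rtl1 site of miR-434-3p: aggagtcgagtgatggttcaaa
Mir673, Mir493 and Mir665 lie outside the Rtl1 gene of GENCODE, although within the longer span that RefSeq gives it. Mir370 lies within the span of Rian, outside its annotated exons. Another 90723 bases separate Mir370 from Mir379, the first hairpin of the distal cluster. Rtl1, Rian and the other long transcripts of the region were not measured in these libraries.

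The deposited values are raw read counts for each mature miRNA. Total counts per library were 4761271 to 6277018, and 524 to 602 miRNAs had at least 1 count in a library. Replicates differed from each other by more than sampling noise in every group, and each was used as a separate sample. miR-1a-3p, the dominant miRNA of skeletal muscle, took 61.4% to 73.7% of a library. The 10 members together amounted to 0.0170% to 0.0521% of the counts, and to 0.0640% to 0.151% of the counts without miR-1a-3p. Levels below are normalized counts, that is, counts scaled by edgeR's TMM factors (0.826 to 1.27) to the mean library total, on which 1 read is worth 0.769 to 1.27 normalized counts. Changes are log2 fold changes from edgeR's quasi-likelihood test, fitted on all miRNAs with a mean normalized count above 10 in the libraries compared. An adjusted p (Benjamini-Hochberg over those miRNAs) under 0.05 was taken as a change. The reads carry no molecular identifiers and may repeat a molecule, so counting intervals cover counting error only. In bulk muscle, fewer cells of a type and less RNA per cell cannot be told apart.

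In WT muscle miR-434-3p was the most abundant of the 10, with 751 ± 59.3 normalized counts (SD, n = 3), and ranked 82 among all listed miRNAs. It was followed by miR-127-3p (135 ± 13.6), miR-127-5p (109 ± 12.9) and miR-434-5p (93.6 ± 11.8), which overlapped one another along this order. miR-493-5p (53.8 ± 9.37) and miR-433-3p (37.0 ± 10.4) overlapped each other and lay below them. The rarest were miR-370-3p (8.70 ± 6.01), miR-673-3p (6.37 ± 0.667), miR-431-5p (2.73 ± 1.41) and miR-665-3p (0.829 ± 1.44), all of them with a mean under 10 normalized counts. In Mbnl1KO the first 2 places were the same, miR-434-5p and miR-127-5p exchanged places while overlapping, miR-370-3p stood above miR-433-3p without overlapping it, where in WT it stood below, also without overlap, and miR-665-3p stood above miR-673-3p and miR-431-5p, overlapping miR-673-3p. In Mbnl2KO the order differed from that of WT in that miR-434-5p stood above miR-127-5p and miR-665-3p above miR-431-5p, both pairs overlapping. Read counts of different miRNAs also depend on how well each is captured in a library, so this order is one of counts.

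**Figure D1:**
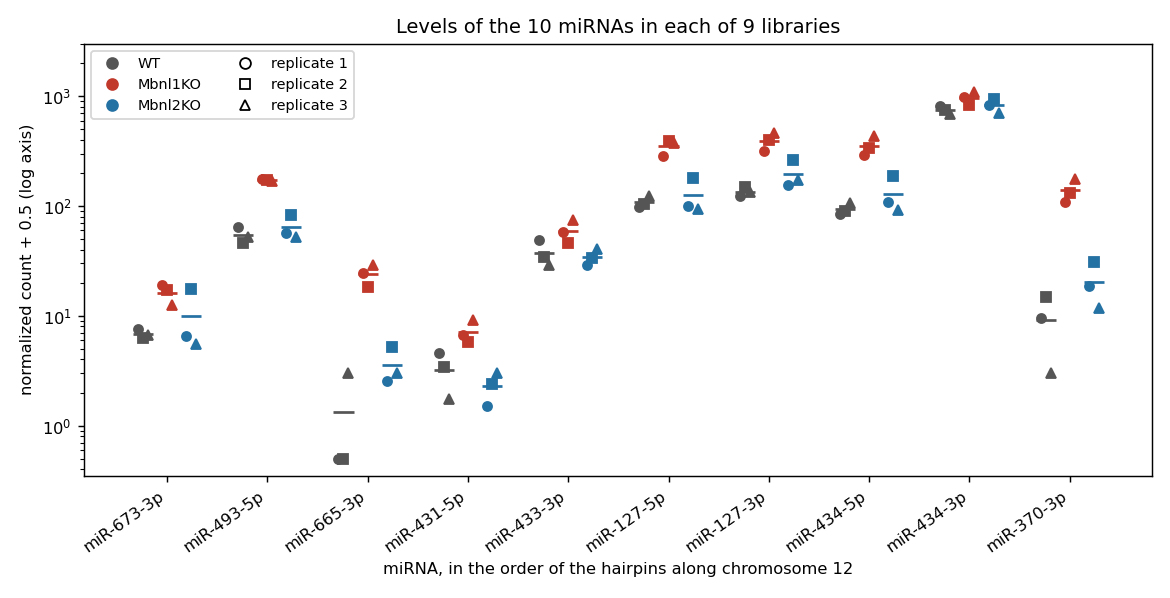
Normalized counts of the 10 miRNAs (log axis, 0.5 added so that 0 can be drawn) in each of the 9 libraries, with a short line at the mean of each group of 3. The Mbnl1KO libraries lie above the WT libraries for every miRNA other than miR-433-3p, and by little for miR-434-3p (842 to 1087 against 690.1 to 808).

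Comparison of Mbnl1KO with WT asks what happens to these miRNAs without MBNL1. Most were higher in Mbnl1KO. The fitted change was 1.23-fold for miR-434-3p, not past the threshold, 14.3-fold for miR-370-3p and 27.2-fold for miR-665-3p, the last against 2 reads in all of WT. Of the 10, 9 passed the filter and 7 of these rose, while none fell. Across all 317 miRNAs tested 33.4% changed in either direction and 18.9% rose. The median log2 fold change of the 9 was 1.60, against -0.01 over all 317. The groups did not overlap, with Mbnl1KO higher, for 8 of the 9 and for miR-431-5p, against 24.6% of all tested miRNAs. miR-673-3p, miR-665-3p and miR-370-3p averaged fewer than 10 normalized counts in WT and passed the filter through their Mbnl1KO levels. The numbers of members given above, the median and the p-values of these 3 in the filtered fit therefore describe the members. They are not support for their direction. Each of the 3 is therefore also given below with its value from a fit of all miRNAs with at least 1 count. Among the 6 members above 10 in WT, miR-493-5p, both arms of miR-127 and miR-434-5p rose, and miR-433-3p and miR-434-3p did not pass the threshold. With library totals in place of TMM factors, which moved the median of all tested miRNAs to 0.30 and put 91 of 101 changed miRNAs on the higher side (60 of 106 with TMM), these last 2 passed as well.

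The miRNAs antisense to Rtl1 did not move by one amount. miR-127-3p had 123, 149.7 and 133 normalized counts in the WT libraries, 316, 399 and 467 in Mbnl1KO and 155, 263 and 172 in Mbnl2KO. All 3 Mbnl1KO libraries were above the other 6. The log2 fold change in Mbnl1KO against WT was 1.47 (SE 0.188, edgeR's quasi-likelihood adjusted p = 2.5e-13).

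miR-127-5p, from the other arm of the same hairpin, had 98.4, 104 and 123 normalized counts in WT, 287, 390.2 and 372 in Mbnl1KO and 98.8, 181 and 93.8 in Mbnl2KO. It too was highest in the 3 Mbnl1KO libraries, and Mbnl2KO replicate 2 stood apart from its group. Its log2 fold change in Mbnl1KO was 1.62 (SE 0.195, edgeR adjusted p = 4.7e-15), close to that of miR-127-3p.

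miR-434-5p had 84.2, 89.8 and 107 normalized counts in WT, 291, 338 and 437 in Mbnl1KO and 108, 187 and 91.2 in Mbnl2KO. Its log2 fold change in Mbnl1KO was 1.86 (SE 0.198, edgeR adjusted p = 7.0e-19), the largest among the 5 tested members antisense to Rtl1. miR-434-3p, its partner on the hairpin and the most abundant member, had 808, 755 and 690.1 normalized counts in WT, 983, 842 and 1087 in Mbnl1KO and 839, 953 and 706 in Mbnl2KO. Its Mbnl1KO and WT libraries did not overlap, but the log2 fold change was 0.29 (SE 0.163) and did not pass the threshold (edgeR adjusted p = 0.149). The 2 products of a single hairpin thus differed in how far they moved.

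miR-433-3p had 48.7, 33.8 and 28.6 normalized counts in WT, 57.7, 46.0 and 73.7 in Mbnl1KO and 28.5, 33.0 and 40.5 in Mbnl2KO. WT replicate 1 lay within the range of Mbnl1KO, and the log2 fold change of 0.59 (SE 0.304) did not pass (edgeR adjusted p = 0.122). miR-431-5p, studied in muscle regeneration, was too rare to be tested, with 4, 3 and 1 counts in WT, 8, 5 and 10 in Mbnl1KO and 1, 2 and 2 in Mbnl2KO. The ratio of its summed counts in Mbnl1KO to those in WT, corrected for library size, was 2.38 (95% counting interval 1.03 to 6.16).

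Among the 3 hairpins that lie before those of Rtl1 along the plus strand, Mir493 gave miR-493-5p, which was the most even member within Mbnl1KO. It had 63.9, 45.4 and 52.2 normalized counts in WT, 175, 173 and 169.9 in Mbnl1KO and 56.0, 82.0 and 51.9 in Mbnl2KO. The 3 Mbnl1KO libraries were all more than double the highest of the other 6, and the log2 fold change was 1.60 (SE 0.235, edgeR adjusted p = 2.0e-10).

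miR-673-3p, from the first hairpin, had 7, 6 and 5 raw counts in WT, 24, 16 and 14 in Mbnl1KO and 6, 18 and 4 in Mbnl2KO, where replicate 2 lay within the range of Mbnl1KO. Its log2 fold change in Mbnl1KO was 1.22 (SE 0.460, edgeR adjusted p = 0.0279). The miRNA passed the filter through its Mbnl1KO level, and in the fit without the filter the call was lost (adjusted p = 0.0919). It was also lost without WT replicate 2 (adjusted p = 0.0926) or WT replicate 3 (0.0628), without Mbnl1KO replicate 1 the miRNA fell under the filter and was not tested, and DESeq2's Wald test gave 0.111.

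miR-665-3p had 0, 0 and 2 counts in WT, 31, 17 and 33 in Mbnl1KO and 2, 5 and 2 in Mbnl2KO, so that it was close to the limit of detection outside Mbnl1KO. The ratio of summed counts in Mbnl1KO to those in WT was 33.6, with a 95% counting interval of 8.99 to 282. The fitted log2 fold change of 4.76 (SE 0.654, edgeR adjusted p = 9.9e-12) rests on 2 WT reads, and without WT replicate 3, which holds both, it was 7.65. Without Mbnl1KO replicate 1 or 3 it fell under the filter and was not tested. In the fit without the filter the value was 4.76 (edgeR adjusted p = 1.4e-10).

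The last hairpin gave the largest change among members with reads in every library. miR-370-3p had 9.13, 14.5 and 2.49 normalized counts in WT, 108, 131 and 177 in Mbnl1KO and 18.3, 30.1 and 11.4 in Mbnl2KO. The lowest Mbnl1KO library was above the highest of all the others by a wide margin. The log2 fold change in Mbnl1KO was 3.83 (SE 0.336, edgeR adjusted p = 1.6e-26), and 3.45 to 4.40 with any library left out. In the fit without the filter it was 3.83 as well (edgeR adjusted p = 3.1e-31). Its raw WT counts were 9, 15 and 2, against 140, 125 and 204 in Mbnl1KO, so the WT side carries most of the uncertainty.

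**Figure D2:**
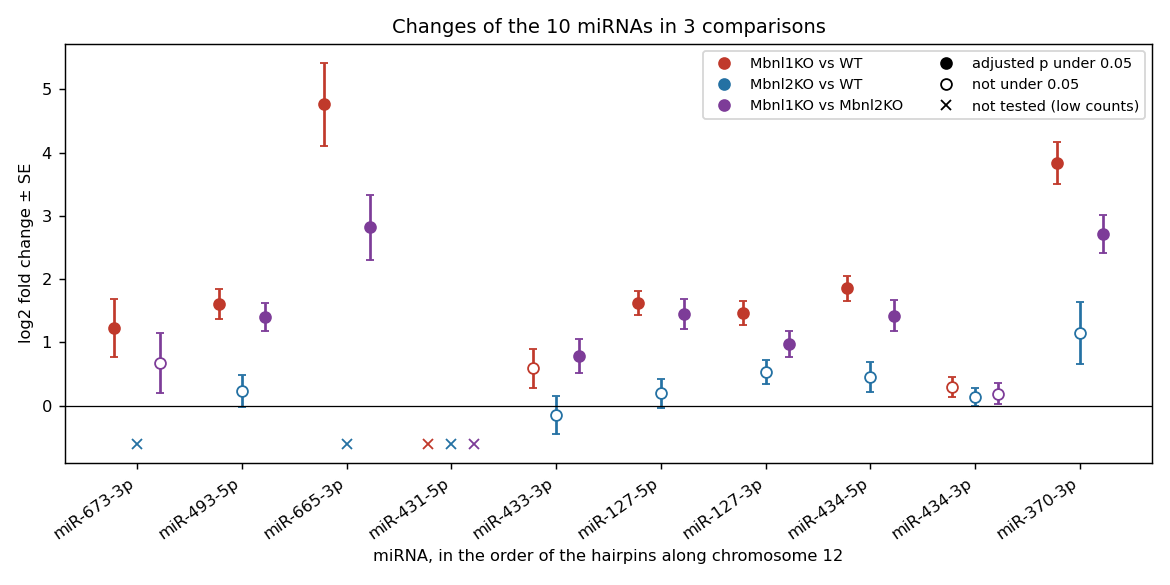
Log2 fold change ± SE of each miRNA in the 3 comparisons, in chromosome order. Filled points passed an adjusted p of 0.05, open points did not, and crosses at the lower edge mark miRNAs too rare to be tested. The Mbnl1KO against WT values run from 0.29 for miR-434-3p to 4.76 for miR-665-3p, and no Mbnl2KO against WT value passed.

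Comparison of Mbnl2KO with WT asks the same of MBNL2, with the same 3 WT libraries as controls. None of the 7 members that passed the filter changed (edgeR), where 5.80% of the 293 tested miRNAs did. At an unadjusted p under 0.05 there were 2, miR-127-3p and miR-370-3p, beside 52 of all 293, and DESeq2's Wald test called 0 as well. miR-127-3p had a log2 fold change of 0.53 (SE 0.195, edgeR adjusted p = 0.138) and was the 1 member whose groups did not overlap, against 24.9% of all tested miRNAs. miR-370-3p had a log2 fold change of 1.15 (SE 0.487, edgeR adjusted p = 0.211), with WT and Mbnl2KO overlapping. It averaged under 10 normalized counts in WT and passed the filter through its Mbnl2KO level, so its p-values are not support for a direction. Without Mbnl2KO replicate 3, the lowest of its group, its value was 1.42 (edgeR adjusted p = 0.0458), and with any other library left out it was 0.75 to 1.73 and did not pass (0.162 to 0.507). The other 5 tested members had log2 fold changes of -0.15 (miR-433-3p) to 0.45 (miR-434-5p), with standard errors up to 0.298. Absence of a call does not show equal levels.

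Within Mbnl2KO, replicate 2 held the highest level of 8 of the 10 members, where that library was the highest of its group for 41.3% of the 322 miRNAs tested in any comparison. Summed over the 10 members, normalized counts were 1312, 1751 and 1177 in Mbnl2KO replicates 1 to 3, against 1146 to 1247 in WT and 2266 to 2832 in Mbnl1KO. Without replicate 2 the log2 fold change against WT fell to 0.29 for miR-127-3p, 0.12 for miR-434-5p and 0.75 for miR-370-3p, and that of miR-127-5p turned from 0.19 to -0.15. With 1 mouse for each labelled allele pair, and those labels in doubt, a difference in genotype and one between single mice cannot be told apart.

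**Figure D3:**
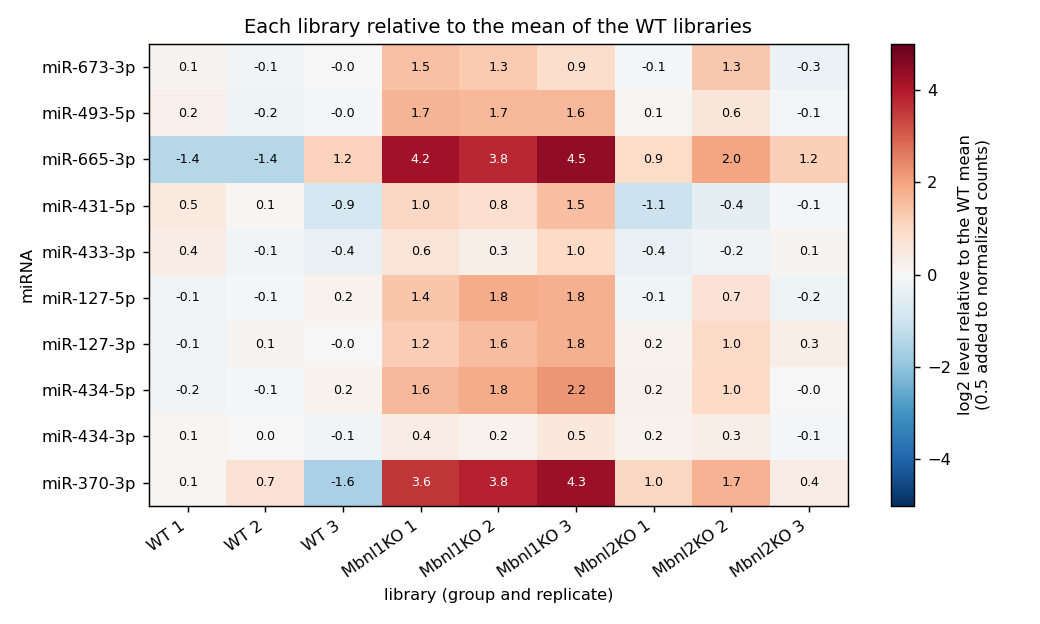
Log2 level of each miRNA in each library relative to the mean of the 3 WT libraries (0.5 added to normalized counts), red for higher and blue for lower. Values are above 0 for all 10 miRNAs in the Mbnl1KO libraries, and Mbnl2KO replicate 2 is redder than the other Mbnl2KO libraries for 8 of them.

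Mbnl1KO was also compared with Mbnl2KO directly, which tests the difference between the knockouts without the WT libraries. The labelled strains differ here too, so strain and the gene deleted cannot be told apart in this comparison. Of 9 members tested, 7 were higher in Mbnl1KO and none lower, where 26.9% of the 309 tested miRNAs differed and 16.5% were higher. The groups did not overlap for 8 of the 10 members, against 25.9% of tested miRNAs. The median log2 difference of the 9 was 1.40, against 0.09 over all 309. miR-673-3p and miR-665-3p passed the filter only through Mbnl1KO, so these counts and the median are not support for a direction. miR-370-3p differed by 2.71 (SE 0.305, edgeR adjusted p = 2.1e-07) and miR-665-3p by 2.82 (SE 0.508, edgeR adjusted p = 9.2e-05, and 1.2e-05 in the fit without the filter). miR-493-5p, miR-127-5p, miR-434-5p and miR-127-3p differed by 1.40, 1.45, 1.42 and 0.97 on the log2 scale, and these calls held in each of the 6 fits with 1 library removed. miR-434-3p (0.18, SE 0.166) and miR-673-3p (0.67, SE 0.474) did not pass. Without Mbnl2KO replicate 2 the value of miR-673-3p was 1.43 (edgeR adjusted p = 0.0610).

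miR-433-3p was higher in Mbnl1KO than in Mbnl2KO by 0.78 (SE 0.272, edgeR adjusted p = 0.0329). The call held without Mbnl1KO replicate 2 (adjusted p = 0.0188) and was lost without any other single library (0.0506 to 0.206). It was also lost with DESeq2's Wald test (0.0850), DESeq2's size factors (0.0514) and no filter (0.0755).

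Ratios of 2 counts within a library need no scaling between libraries, and ask whether products of the same hairpin or of neighbouring hairpins moved together. For miR-434 the 3p arm had 9.60, 8.41 and 6.45 reads for each read of the 5p arm in WT, 3.37, 2.49 and 2.49 in Mbnl1KO, and 7.77, 5.11 and 7.74 in Mbnl2KO. All 3 Mbnl1KO libraries were below the other 6. The geometric means were 8.01, 2.75 and 6.72 (0.5 added to each count), a log2 difference between Mbnl1KO and WT of -1.54. An exact permutation test over the 3 groups, with 1680 arrangements of the 9 libraries and adjustment over 9 ratios, gave p = 0.0143 and adjusted p = 0.0321. Mbnl1KO against WT alone cannot go below 0.10 with 3 libraries each, and that was its exact permutation p.

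For miR-127 the arms were close to equal in number and differed little between Mbnl1KO and WT. The 3p arm had 1.25, 1.44 and 1.08 reads per 5p read in WT, 1.102, 1.02 and 1.26 in Mbnl1KO, and 1.57, 1.45 and 1.84 in Mbnl2KO. The WT and Mbnl1KO libraries overlapped, with a log2 difference of -0.15 (exact permutation p = 0.50), and all 3 Mbnl2KO libraries were above the other 6. The difference over the 3 groups (exact permutation, adjusted p = 0.0429) was lost with any library other than WT replicates 2 and 3 left out (0.0723 to 0.110).

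**Figure D4:**
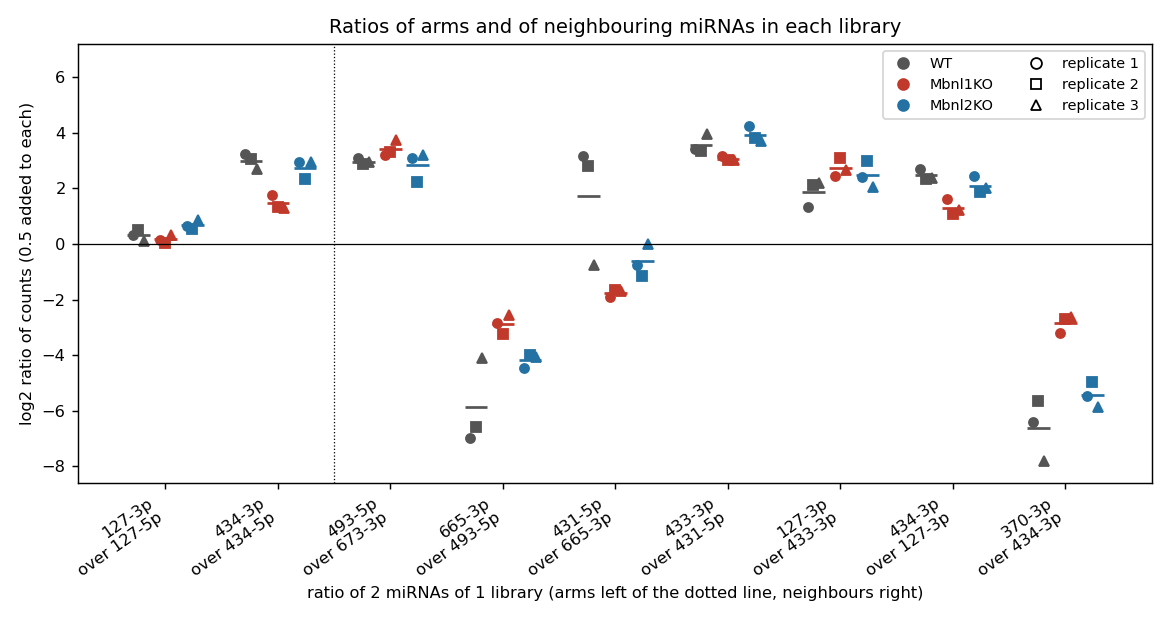
Log2 ratio of the counts of 2 miRNAs in each library (0.5 added to each count), with a short line at the mean of each group. The 2 ratios left of the dotted line compare arms of a hairpin and the 7 to its right compare neighbours along the chromosome. In Mbnl1KO the ratios of miR-434-3p to miR-434-5p and to miR-127-3p lie below, and that of miR-370-3p to miR-434-3p above, all libraries of the other groups.

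Of the 7 ratios between neighbouring members, 4 differed between the groups at an adjusted p under 0.05. Fewer did when a smaller count was added to each miRNA, as the closing section gives. miR-434-3p was 5.55 times miR-127-3p in WT, 2.48 times in Mbnl1KO and 4.31 times in Mbnl2KO (geometric means, exact permutation over the 3 groups, adjusted p = 0.0321). miR-370-3p was 0.0102 times miR-434-3p in WT, 0.141 times in Mbnl1KO and 0.0231 times in Mbnl2KO (exact permutation, adjusted p = 0.0321). In both ratios the 3 Mbnl1KO libraries lay apart from the other 6. The ratio of miR-665-3p to miR-493-5p (exact permutation, adjusted p = 0.0321) and that of miR-433-3p to miR-431-5p (0.0429) also differed, but include a member with 0 to 10 reads in most libraries. miR-493-5p over miR-673-3p (0.143), miR-431-5p over miR-665-3p (0.0551) and miR-127-3p over miR-433-3p (0.137) did not pass. The miR-434 arm ratio and the first 2 of these ratios stayed on the same side in Mbnl1KO in every fit. Their adjusted p, however, rose to 0.0643 without Mbnl1KO replicate 2, to 0.0750 without Mbnl2KO replicate 2 and to between 0.0643 and 0.0750 without Mbnl2KO replicate 3. Without WT replicate 1 it was 0.0643 for the miR-434 arms and 0.0536 for miR-434-3p over miR-127-3p. Of the other 2, miR-665-3p over miR-493-5p passed without any single WT library, and miR-433-3p over miR-431-5p without WT replicate 2 or 3. Without WT replicate 1 the latter had an adjusted p of 0.0643, and without any single Mbnl1KO or Mbnl2KO library both were lost (exact permutation, adjusted p = 0.0771 to 0.110).

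Of 26 other miRNAs listed for the proximal part, among them the second arms of the hairpins and both arms of miR-136, which is also antisense to Rtl1, 14 were listed at 0 in all 9 libraries and none passed the filter. Summed over these miRNAs, a WT library held 11 or 12 raw counts, an Mbnl1KO library 62 to 83, and the Mbnl2KO libraries 11, 26 and 12. miR-673-5p, the other arm of miR-673, had 1, 2 and 2 counts in WT, 18, 11 and 14 in Mbnl1KO and 2, 4 and 2 in Mbnl2KO. The groups were less distinct for miR-433-5p, which had the most reads of these miRNAs. It had 7, 7 and 3 counts in WT, 16, 13 and 8 in Mbnl1KO and 5, 11 and 6 in Mbnl2KO. Its WT and Mbnl1KO libraries overlapped in normalized counts. A 0 in this table need not mean absence, since miR-126a-3p, a miRNA of blood vessels, was listed at 0 in muscle as well.

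Of 75 listed miRNAs of the distal cluster, 37 passed the filter in Mbnl1KO against WT, where 27 rose and none fell, beside 18.9% of all tested miRNAs that rose. The log2 fold changes of the 37 ran from -0.89 to 3.33, with a median of 1.15. In Mbnl2KO against WT none of 32 tested changed, and Mbnl1KO was higher than Mbnl2KO for 22 of 35, beside 16.5% of all tested miRNAs. The summed normalized counts of the cluster were 3213 to 3289.6 for WT, 9112 to 10879 for Mbnl1KO and 3339, 4294 and 3389 in Mbnl2KO, with replicate 2 again the highest. Some of the miRNAs that rose, among them miR-381-5p and miR-541-3p, had under 10 normalized counts in every WT library and passed the filter through Mbnl1KO. For miR-541-3p the same held against Mbnl2KO. The numbers of cluster miRNAs called and their median are therefore not support for a direction. This list was drawn up with earlier results of these data known, and is a description.

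The 5 miRNAs whose pattern over the 9 libraries was most like the mean pattern of the 9 members tested in any comparison all belonged to that cluster. The first miRNA outside it was miR-23b-3p, at rank 9 (Pearson's r = 0.943). Among 313 candidates the first 5 were miR-381-3p (Pearson's r = 0.986), miR-411-5p (0.971), miR-541-5p (0.969), miR-409-3p (0.968) and miR-300-3p (0.966). The libraries form 3 groups, so these values mostly reflect the difference between Mbnl1KO and the rest. Among the members themselves, the correlation of each with the mean of the others over the same libraries was lowest for miR-433-3p (0.698) and miR-434-3p (0.815) and highest for miR-434-5p (0.978).

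Markers of muscle and of other cells were read in the same libraries. miR-1a-3p and miR-133a-3p, which are enriched in muscle, were abundant in every library, and miR-208b-3p was too rare to be tested. Of the 5 muscle markers tested in Mbnl1KO against WT, 2 rose and 1 fell, miR-1a-3p (log2 fold change -0.40, edgeR adjusted p = 0.0453). miR-133b-3p, named after its values were seen, rose by 0.72 (edgeR adjusted p = 0.0147). miR-206-3p, which is raised in regenerating muscle fibres, rose by 1.93 in Mbnl1KO (edgeR adjusted p = 1.8e-31) and by 0.89 in Mbnl2KO (edgeR adjusted p = 0.00213), where it was the 1 of 5 muscle markers that changed and none of the 7 members tested did. The muscle list summed to 4565020 to 4855340 normalized counts per WT library, 3260670 to 4180610 per Mbnl1KO library and 3984110 to 5499350 per Mbnl2KO library, the Mbnl1KO libraries lying below all of WT. In raw counts, of which miR-1a-3p alone is the larger part, the groups overlapped (3682269 to 4786623 in WT and 3996685 to 4707953 in Mbnl1KO). Of 6 tested markers of immune and blood cells, miR-155-5p rose and miR-223-3p, miR-146a-5p and miR-142a-5p fell in Mbnl1KO against WT, these 4 being named after their values were seen, and none changed in Mbnl2KO against WT. The 8 of the list summed to 2700.2 to 3161 normalized counts per WT library, 2781 to 3424 per Mbnl1KO library and 2947 to 3180 per Mbnl2KO library, with miR-142a-3p listed at 0. Of 5 tested markers of connective tissue and vessel wall, miR-199a-3p fell in Mbnl1KO against WT, where none rose, and miR-143-3p rose in Mbnl2KO against WT by 0.47 (edgeR adjusted p = 0.0274), where none fell. Both were named after their values were seen. The sum of the list was 35862 to 37979 for WT, 34042 to 49032 for Mbnl1KO and 44109 to 49826 for Mbnl2KO. Neither of 2 tested neural markers changed against WT in either knockout, and miR-124-3p, which defines neurons, had at most 3 counts in a library. The neural list summed to 2699 to 3281 for WT, 3387 to 3835 for Mbnl1KO and 2319.6 to 3146 for Mbnl2KO, nearly all of it miR-128-3p, which muscle also expresses. The part of these shifts in the levels of the 10 members was not tested.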

How the data were processed

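The authors deposited 1 table of raw counts per mature miRNA and library, without normalization. According to the study's methods, adapters were clipped, reads were collapsed and mapped without mismatches, in sense, to miRBase precursors, and reads within an annotated mature miRNA and a small margin were summed. Whether this made the deposited table is not stated in it. No column was left out, and groups were taken from the labels.

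The 6 libraries of 2 groups at a time were fitted in edgeR 4.0.16 (robust quasi-likelihood, TMM, Benjamini-Hochberg) in R 4.3.3 with limma 3.58.1, keeping miRNAs whose mean normalized count exceeded 10. DESeq2 1.42.0 served as an alternative. Ratios were tested by exact permutation (two-sided) in Python 3.11.15 with NumPy 2.4.6, pandas 2.3.3 and matplotlib 3.10.9. The edgeR fit and the ratio test were checked on simulated counts. For the ratios this covered only the miR-127 arms, on counts without spread beyond sampling noise. It did not cover rare members. All 10 members were named, beside the other proximal miRNAs, the 5 miRNAs with the most similar profile and muscle markers. The lists, like the members, were chosen with earlier results of these data known. Labels name separate mice, and replicate numbers were not shown to pair them. Sequences and hairpin positions came from RefSeq (GRCm38.p6) and matched all 10 members. The overlap with Rtl1 and Rian was read from GENCODE on GRCm39, without converting coordinates. Other samples of the study were not analysed here.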

Additional observations from a re-analysis of the deposited data

How the results depend on the processing

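With a mean normalized count above 100, 4 of 5 tested members rose in Mbnl1KO against WT, and 4 were higher than in Mbnl2KO, since fewer members could be tested. Under the other alternatives 6 to 9 members rose in Mbnl1KO, and with a library left out 5 to 7. Against Mbnl2KO 6 or 7 were higher, also with a library left out. These counts describe the members alone, since a setting can also move the calls over all tested miRNAs. In Mbnl2KO against WT the count was 0 under each alternative, and 0 to 1 with a library left out. Leaving out single libraries moved miR-433-3p from -0.29 to 0.12 and miR-127-5p from -0.15 to 0.38 in that comparison, so neither has a settled direction. The replicate numbers did not pair the libraries (same-number deviations correlated at -0.153 to 0.151). With them as a replicate block, 7, 0 and 6 members passed in the 3 comparisons, miR-433-3p being lost between the knockouts (adjusted p = 0.0569), and 0 arm and 0 neighbour ratios passed. At a threshold of 0.01, 0 and 0 ratios passed. With so few libraries the exact permutation p has a lower limit. With the block or at 0.01, no ratio could pass alone after adjustment over 9 ratios, so these results say little about the ratios. With 0.1 in place of 0.5 counts added, 1 arm and 2 neighbour ratios passed. With a library left out, 0 to 2 arm and 0 to 5 neighbour ratios passed. Scaling by library totals without miR-1a-3p, which was added after seeing the data, gave 7, 0 and 7 members.

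Over all tested miRNAs, in Mbnl1KO against WT 106 of 317 changed (60 higher), and 70 changed with the stricter filter. In Mbnl2KO against WT 17 changed, 10 with the stricter filter, 7 (5 higher, of 10 higher with TMM) with library totals, 6 at 0.01 and 4 to 26 with a library left out. Between the knockouts 83 differed (51 higher), 93 with DESeq2's size factors (46 higher), 77 with library totals (72 higher, median 0.36) and 44 at 0.01. Depth limits miR-431-5p and miR-665-3p, where 3 counts, the limit that a count of 0 allows, are 2.31 to 3.80 normalized counts.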
